A study of Homo sapiens with 7 samples.

Results

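The genes described here code for the surface ligands by which natural killer cells, T cells and macrophages read a stressed or tumour cell: the NKG2D ligands MICA, MICB, ULBP1, ULBP2 and ULBP3, and the immune checkpoint ligands PVR, CD274, PDCD1LG2, CD276 and CD47. They were taken by name, and 9 of the 10 had rows among the 14535 genes of the deposited table. PDCD1LG2, which codes PD-L2, is not analysed here. The samples were A549 cells, an established line of human lung adenocarcinoma with features of alveolar epithelium. In 3 libraries, numbered 1 to 3, the cells had received doxorubicin, a topoisomerase II poison and DNA-damaging drug, given at 100 nM over 24 h. In 4 libraries, numbered 4 to 7, they had been stretched cyclically for 24 h by 15% of their length at 15 cycles per min. Both groups were stained for β-galactosidase, a marker of senescent cells, after 6 days, and RNA came from the sorted positive cells. Untreated and unstained cells are not analysed here, so each difference is between the 2 treatments and not a change from a resting state. All libraries come from 1 line, and whether replicates were grown as separate cultures is not stated. The p-values therefore reflect the scatter of these libraries alone, which could be technical.

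NKG2D is an activating receptor of natural killer cells and of cytotoxic T cells. Its ligands are distant relatives of the MHC class I heavy chain, are scarce on most healthy cells, and are induced by DNA damage, heat shock and other stress. Senescent cells are known to display them and can be killed through them. The checkpoint ligands mostly act in the opposite sense: PD-L1, the product of CD274, binds PD-1 on T cells, CD47 binds SIRPα on macrophages and blocks engulfment, and PVR (CD155) is shared between the activating receptor DNAM-1 and the inhibitory receptor TIGIT.

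The libraries differed in depth and quality. Totals were 2611766 to 4644650 counts after doxorubicin and 5636494 to 7419798 after stretch. Values below are CPM, counts scaled to a common library size by TMM, a method that balances most genes between libraries. The TMM factors were 0.730, 0.443 and 1.14 in doxorubicin libraries 1, 2 and 3 and 1.25 to 1.33 in the stretch libraries. A level of 3 counts, taken as the limit of detection, was 1.19, 2.59 and 0.567 CPM in doxorubicin libraries 1, 2 and 3 and at most 0.401 CPM in the stretch libraries. Doxorubicin library 2 stood apart, with 21.2% of genes at a count of 0 and 30.6% of its counts in the single gene EIF4A2, against at most 4.79% and 2.87% in the stretch libraries. Doxorubicin library 1 stood between, at 10.8% and 16.1%, and doxorubicin library 3 was at 5.02% and 10.8%. Both shares were thus higher in every doxorubicin library than in any stretch library, and cannot be told apart from treatment. All 7 epithelial and A549 markers examined were detected in at least 1 library, with summed levels of 3415 to 6210 CPM after doxorubicin and 3082 to 3752 CPM after stretch. They did not go one way. KRT18 was lower after stretch (2116 ± 956 against 460 ± 46.5 CPM, doxorubicin against stretch, SD, n = 3 and 4). EPCAM (3.26 ± 2.07 against 12.7 ± 2.11) and AKR1C1 (253 ± 118 against 530 ± 123) were higher. KRT8, KRT19, CDH1 and AKR1B10 differed by less. EPCAM had 1 count in doxorubicin library 2. Of 11 leukocyte markers, 6 were in the table; PTPRC, CD3E, NKG7 and MS4A1 are among those not analysed here. KLRK1, which codes NKG2D itself, had at most 7 counts in any library. The summed level of these 6 leukocyte markers was 101 to 146 CPM after doxorubicin and 57.7 to 63.0 CPM after stretch, most of the difference being in CD68, a lysosomal protein (75.6 ± 28.7 against 18.6 ± 1.44 CPM; SD, n = 3 and 4). Of 6 fibroblast markers 4 were detected, at summed levels of 9.26 to 18.2 CPM after doxorubicin and 7.35 to 10.4 CPM after stretch, and of 4 endothelial markers only CDH5, at up to 0.963 CPM. Their part in the results below was not tested. Where a level was lower in bulk RNA, fewer expressing cells and less RNA per cell cannot be told apart.

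The 9 ligand genes did not move as a block. MICA and ULBP1 had higher levels after stretch, PVR and ULBP2 had higher levels after doxorubicin, and MICB, ULBP3, CD274, CD276 and CD47 differed by less. By the quasi-likelihood test of edgeR, 2.32% of 11230 genes were past a Benjamini-Hochberg adjusted p of 0.05, and 0 of the 9 ligand genes were among them. At an unadjusted p under 0.05 there were 4 of the 9 (MICA, ULBP1, ULBP2 and PVR), beside 23.2% of all tested genes. The group ranges of MICA, ULBP2, PVR and CD47 did not overlap, which was so for 21.4% of tested genes. For MICA the higher group was stretch, as for 11.5% of tested genes, and for the other 3 it was doxorubicin, as for 9.88%. Other tests on the same counts called different numbers of ligand genes: DESeq2 called 2 (PVR and ULBP1; 10% of the genes it tested), limma-voom 0 (1.66%), and voom with library quality weights 6 (47.0%). Without doxorubicin library 3, edgeR called MICA and PVR, when 32.2% of all genes passed. The median log2 fold change (stretch minus doxorubicin) was 0.34 over the 5 NKG2D ligands, with 4 on the stretch side, and -0.66 over the 4 checkpoint ligands, all on the doxorubicin side, although CD274, CD276 and CD47 lay on the stretch side when libraries were scaled by their totals alone. Over all tested genes it was 0.02, with 5748 on the stretch side and 5482 on the doxorubicin side.

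**Figure D1:**
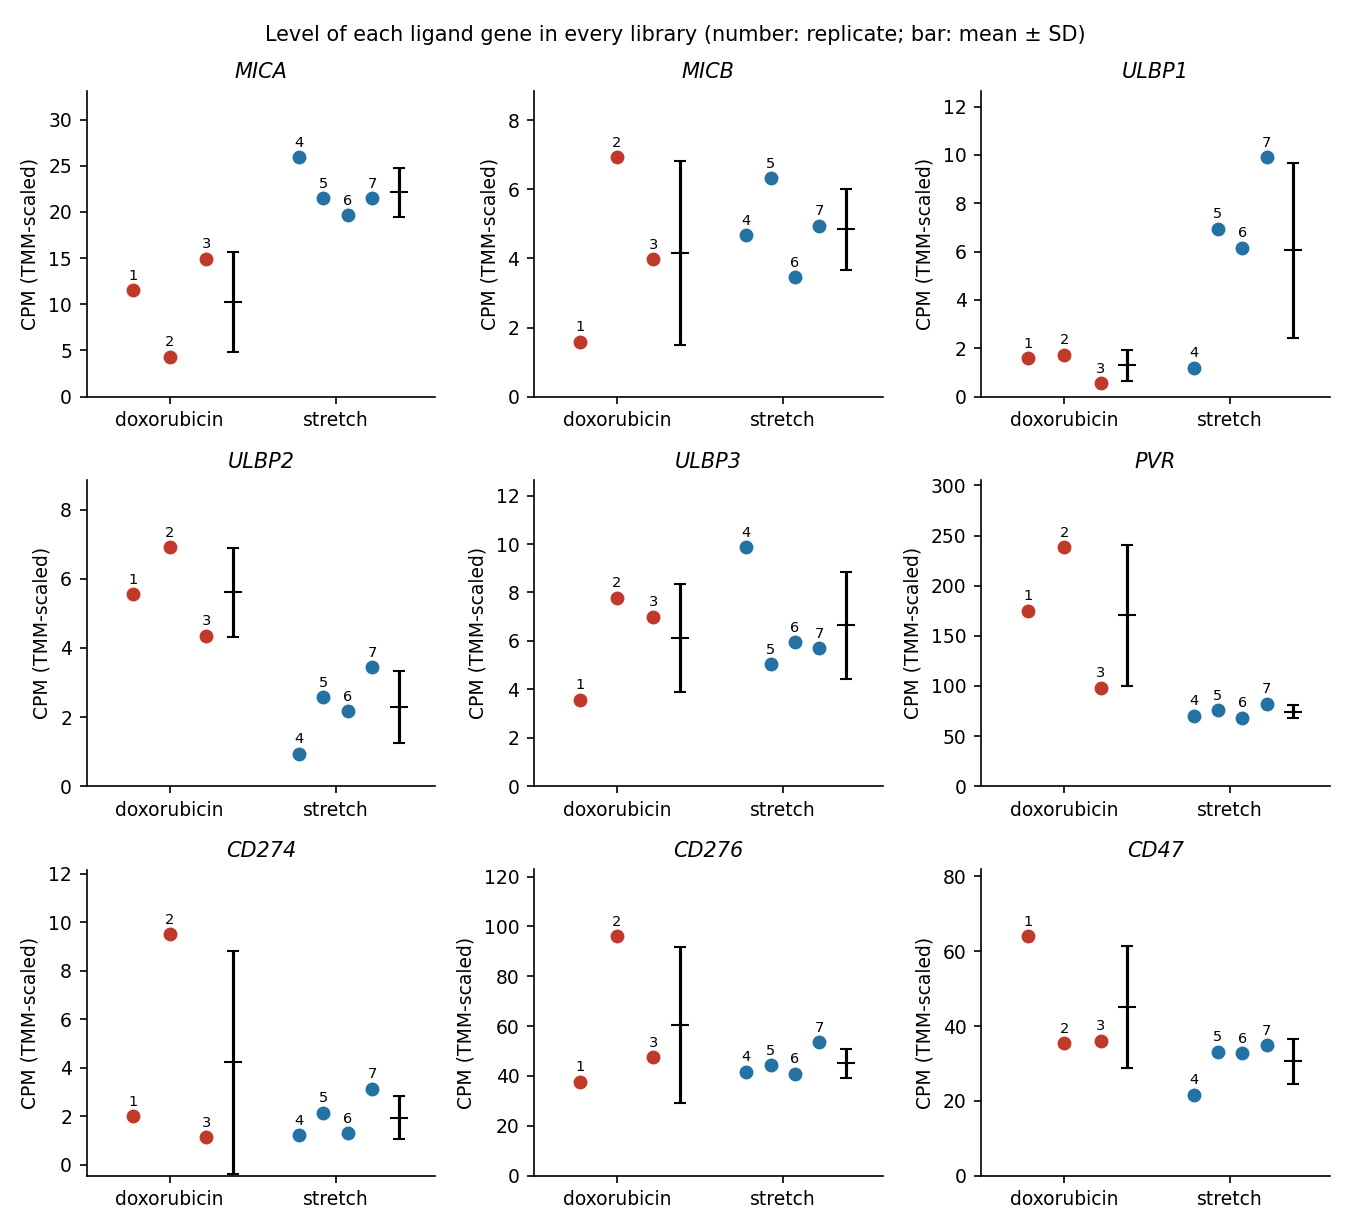
Level of the 9 ligand genes in CPM (vertical axes, TMM-scaled) in each of the 7 libraries, doxorubicin in red and stretch in blue, with the replicate number over each point and the group mean ± SD as a bar. MICA lies at 19.7 to 25.9 CPM in stretch and at most at 14.9 CPM after doxorubicin, and PVR shows the opposite order, while the CD274 mean after doxorubicin is set by library 2.

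MICA and MICB are neighbouring genes in the class I region of the major histocompatibility complex and code ligands with the same fold, anchored by a transmembrane segment. MICA (chromosome 6, 31399784 to 31415315) and MICB (31494881 to 31511124, GENCODE release 29 on GRCh38) are 79.6 kb apart. Their proximal promoters resemble each other and hold the same pair of motifs, and are shown for that likeness. The 250 bases upstream of each RefSeq start (GRCh38.p14, chr6:31403345-31403594 and chr6:31497895-31498144, plus strand) (inside the longer GENCODE genes, whose first annotated start lies further upstream) run 5′ to 3′ as follows, with motif matches in capitals:
MICA: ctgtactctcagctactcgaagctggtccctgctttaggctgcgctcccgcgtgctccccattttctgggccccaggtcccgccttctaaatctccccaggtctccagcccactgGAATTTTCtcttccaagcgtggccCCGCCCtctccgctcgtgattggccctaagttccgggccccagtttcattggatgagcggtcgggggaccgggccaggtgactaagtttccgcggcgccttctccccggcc
MICB: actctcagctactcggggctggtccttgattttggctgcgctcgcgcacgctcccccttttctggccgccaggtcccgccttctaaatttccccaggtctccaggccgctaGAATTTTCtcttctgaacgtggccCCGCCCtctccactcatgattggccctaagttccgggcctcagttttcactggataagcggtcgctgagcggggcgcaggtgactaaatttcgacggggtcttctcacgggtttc

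Over 254 aligned positions, 82.7% of the bases of the MICA and MICB windows were identical. Both held 1 match to a heat shock element core, searched as GAANNTTC (its own reverse complement) and TTCNNGAA (likewise), at 135 and 139 bases before the start. The first of these forms was in 5.78% and the second in 6.62% of 35116 promoter windows of this length. Both also held 1 GC box, searched as GGGCGG on either strand and found in 42.6% of windows. The 2 matches did not overlap. These are matches of letters and do not show binding.

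The level of MICA was 11.5, 4.32 and 14.9 CPM in the doxorubicin libraries, in order, and 25.9, 21.5, 19.7 and 21.5 CPM in the stretch libraries. Every stretch library was above every doxorubicin library. It was 2.04-fold higher after stretch (log2 fold change 1.03, SE 0.39, 95% interval 0.17 to 1.88), with an adjusted p of 0.149 by edgeR. The difference was 0.58 against doxorubicin library 3 alone and 0.74 without doxorubicin library 2. MICA is highly polymorphic and stood in 3 rows of the table, which hold 47.3%, 1.80% and 50.9% of its counts and were summed. The first row had 7.15, 0.865 and 6.05 CPM after doxorubicin and 8.54 to 12.4 CPM after stretch. The third had 4.37, 3.46 and 8.32 CPM after doxorubicin and 8.82 to 16.6 CPM after stretch. Neither pair of ranges overlapped, but those of the third row nearly met. In doxorubicin library 2 the first row rests on 1 count and the third on 4, and the summed MICA on 5. Taken alone the rows gave log2 fold changes of 1.0 and 0.98 (adjusted p of 0.229 and 0.191 by edgeR, chosen after seeing the data).

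MICB stood at 1.59, 6.92 and 3.97 CPM after doxorubicin and at 4.67, 6.31, 3.46 and 4.95 CPM after stretch. The groups overlapped, and the highest value was that of doxorubicin library 2, where it rests on 8 counts. Its log2 fold change was 0.34 (95% interval -0.76 to 1.43, adjusted p of 0.711 by edgeR), and -0.05 without doxorubicin library 1. The interval includes the 2.04-fold difference of MICA, so the data do not show that MICB behaved otherwise. The ratio of the 2 genes within a library does not depend on scaling. The log2 ratio of MICB to MICA counts was -2.71, 0.63 and -1.89 after doxorubicin and -2.45, -1.76, -2.49 and -2.11 after stretch. The means differed by -0.88 (exact permutation test over 35 arrangements, two-sided, p = 0.486, also 0.486 when adjusted over 2 pairs). Without doxorubicin library 2 they differed by 0.10. Of the 31-base words in whole MICA transcripts, 8.77% also occur in MICB transcripts. Some of their reads could be shared, and how large a part was not tested.

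The ULBP genes lie in a cluster on the other arm of chromosome 6. Their products bind NKG2D with only the class I α1 and α2 domains, most of them held by a lipid (GPI) anchor. ULBP1 (149964007 to 149973710) had the largest difference of the ligands. After doxorubicin it was hit by 4, 2 and 3 counts, and after stretch by 9, 65, 57 and 92. Doxorubicin libraries 2 and 3 were thus at or under the detection level of 3 counts, and library 1 was just above it. The size of the difference therefore rests on doxorubicin values near that level. On the scaled axis this was 1.59, 1.73 and 0.567 CPM after doxorubicin and 1.20, 6.95, 6.16 and 9.90 CPM after stretch. Stretch library 4 lay within the doxorubicin range and the other 3 stretch libraries lay above it. The log2 fold change was 2.45 (SE 0.80, 95% interval 0.67 to 4.23, adjusted p of 0.113 by edgeR), and 2.78 without stretch library 4. DESeq2 gave 2.42 with an adjusted p of 0.0384. Summed over libraries, 223 counts after stretch and 9 after doxorubicin gave a ratio of 6.28 per scaled read, with an exact 95% counting interval of 3.25 to 13.9. That interval leaves out the spread between libraries. ULBP1 passed the filter on low counts through 3 stretch libraries and no doxorubicin library, so its being tested at all rested on the stretch group.

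ULBP2 (149942000 to 149949235), 14.8 kb from ULBP1, went the other way. It stood at 5.56, 6.92 and 4.35 CPM after doxorubicin and at 0.935, 2.57, 2.16 and 3.44 CPM after stretch. Every doxorubicin library was above every stretch library, with 8 to 23 counts behind the former values and 7 to 32 behind the latter. The level was 2.34-fold lower after stretch (log2 fold change -1.23, SE 0.49, 95% interval -2.31 to -0.14, adjusted p of 0.168 by edgeR). Leaving out single libraries gave -1.50 to -0.98, and scaling by library totals alone gave -0.47. Of the 31-base words in whole ULBP2 transcripts, 41.7% also occur in RAET1L, a near-identical neighbour that is not analysed here. Some ULBP2 reads could be shared with it. These words cover whole transcripts and not the amplified regions alone, so how large a part was not tested.

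ULBP3 (150063150 to 150069095) stood at 3.57, 7.78 and 6.99 CPM after doxorubicin and at 9.88, 5.03, 5.95 and 5.70 CPM after stretch. The groups overlapped, and stretch library 4 was the highest of all 7. The log2 fold change was 0.14 (95% interval -0.80 to 1.07, adjusted p of 0.871 by edgeR). The log2 ratio of ULBP2 to ULBP3 counts was 0.61, -0.16 and -0.67 after doxorubicin and -3.31, -0.96, -1.44 and -0.72 after stretch. The ratio was lower in each stretch library than in any doxorubicin library, although library 3 and stretch library 7 nearly met. The means differed by -1.53 (exact permutation test, two-sided, p = 0.0571, or 0.114 adjusted over 2 pairs, where 0.0286 is the smallest p the design allows).

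The ULBP1 promoter window (chr6:149963693-149963942, plus strand) is given because ULBP1 had the largest log2 fold change of the ligands. GC boxes are in capitals:
ULBP1: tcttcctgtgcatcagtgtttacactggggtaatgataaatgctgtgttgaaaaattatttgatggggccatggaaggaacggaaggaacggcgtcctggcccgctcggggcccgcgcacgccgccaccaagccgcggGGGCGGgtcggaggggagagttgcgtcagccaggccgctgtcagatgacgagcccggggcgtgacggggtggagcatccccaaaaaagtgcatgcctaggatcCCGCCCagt

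This window had no match to the heat shock cores, to the cAMP response element (TGACGTCA, in 1.65% of windows), to an ATF4 composite core (TGATGNAA, 3.14%) or to an AP-1 site (TGANTCA, 6.57%), each searched on both strands. It held 2 GC boxes. The windows of the 3 ULBP genes were 44.0% to 48.5% identical when aligned in pairs. Of the remaining family members, RAET1E and RAET1G were too weak to be tested, at 0.33 ± 0.41 against 0.94 ± 0.55 CPM and 1.48 ± 0.31 against 1.52 ± 0.72 CPM (doxorubicin against stretch; SD, n = 3 and 4).

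PVR (chromosome 19, 44643798 to 44663583), the nectin-like molecule that was first known as the poliovirus receptor, had the lowest adjusted p of the ligands. Its level was 175, 239 and 98.1 CPM after doxorubicin and 70.2, 75.9, 68.4 and 82.4 CPM after stretch. All doxorubicin libraries were above all stretch libraries, and the stretch libraries lay close together (74.2 ± 6.30 CPM, n = 4). The level was 2.29-fold lower after stretch (log2 fold change -1.20, SE 0.33, 95% interval -1.93 to -0.46), with an adjusted p of 0.0748 by edgeR and 0.0164 by DESeq2. The difference was -0.39 against doxorubicin library 3 alone, and -0.87 without doxorubicin library 2, the library with the highest value. With libraries scaled by their totals alone it was -0.28. PVR overlaps CEACAM19 on the same strand, with which it shares 2.56% of its 31-base words.

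The 5 genes whose log-CPM followed PVR most closely over the 7 libraries, among 7500 with a mean of at least 10 CPM, were GLIS3, ACTN4, CMTM3, KLHDC2 and RC3H1, with Pearson correlations of 0.992 to 0.995. Their log2 fold changes were between -1.62 and -1.06, and each was highest in doxorubicin library 2. The genes were chosen for this likeness, so their direction and highest library follow from the choice. These points share the libraries' depth and scaling. The correlation of PVR with MICA over the same 7 libraries was -0.94 and with ULBP2 0.83.

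CD274 (chromosome 9, 5450503 to 5470566) was weakly expressed, with 92 counts in all 7 libraries together. It had 5, 11 and 6 counts after doxorubicin (1.99, 9.51 and 1.13 CPM) and 9, 20, 12 and 29 after stretch (1.20, 2.14, 1.30 and 3.12 CPM). Only doxorubicin library 2 stood above the rest. The other 2 doxorubicin libraries were within or below the stretch range. The log2 fold change was -0.76 (SE 0.74, 95% interval -2.39 to 0.88, adjusted p of 0.560 by edgeR), and 0.41 without doxorubicin library 2. At this depth no direction could be given for CD274.

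The promoter window of CD274 (chr9:5450292-5450541, plus strand) is shown because PD-L1 is a textbook target of interferon, and interferon-response motifs lay in it. Capitals mark, from 5′ to 3′, a pair of overlapping interferon-stimulated response element cores on the minus strand, a gamma-activated site and a GC box:
CD274: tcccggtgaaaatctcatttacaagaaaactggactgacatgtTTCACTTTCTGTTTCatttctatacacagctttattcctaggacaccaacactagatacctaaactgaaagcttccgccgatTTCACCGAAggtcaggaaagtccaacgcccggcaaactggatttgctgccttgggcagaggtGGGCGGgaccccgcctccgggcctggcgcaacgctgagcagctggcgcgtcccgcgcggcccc

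The response element core was searched as GAAANNGAA on both strands and was found at 207 and 201 bases before the start. It occurred in 6.88% of all windows. The gamma-activated site was searched as TTCNNNGAA and found at 125 bases before the start, and occurred in 6.57% of windows. No other ligand gene had either motif in its window. IRF1, the factor that acts on the CD274 promoter downstream of interferon-γ, stood at 48.4, 70.04 and 52.2 CPM after doxorubicin and at 28.2 to 44.1 CPM after stretch, with a log2 fold change of -0.62 (adjusted p of 0.223). The 5 genes closest to CD274 in pattern, among 7501, were IPO9, SUN2, ARAF, ELK4 and DAG1 (Pearson correlations of 0.977 to 0.988). Each had its highest level in doxorubicin library 2, which follows from choosing them for this likeness.

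CD276 (chromosome 15, 73683966 to 73714518) codes B7-H3, a member of the B7 family that many carcinomas express. It stood at 37.7, 95.98 and 47.6 CPM after doxorubicin and at 41.7, 44.3, 40.97 and 53.6 CPM after stretch. Doxorubicin library 1 was the lowest of all, and again only doxorubicin library 2 stood above the stretch range. The log2 fold change of CD276 was -0.40 (SE 0.35, 95% interval -1.18 to 0.37, adjusted p of 0.503 by edgeR), and 0.08 without doxorubicin library 2.

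CD47 (chromosome 3, 108043094 to 108091862), the signal that keeps macrophages from engulfing a cell, stood at 63.9, 35.5 and 36.1 CPM after doxorubicin and at 21.6, 33.2, 32.8 and 34.9 CPM after stretch. The ranges did not overlap, but doxorubicin libraries 2 and 3 were close to the highest stretch libraries. Stretch against doxorubicin gave a log2 fold change of -0.56 (SE 0.32, 95% interval -1.28 to 0.15, adjusted p of 0.313 by edgeR), and -0.22 without doxorubicin library 1.

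**Figure D2:**
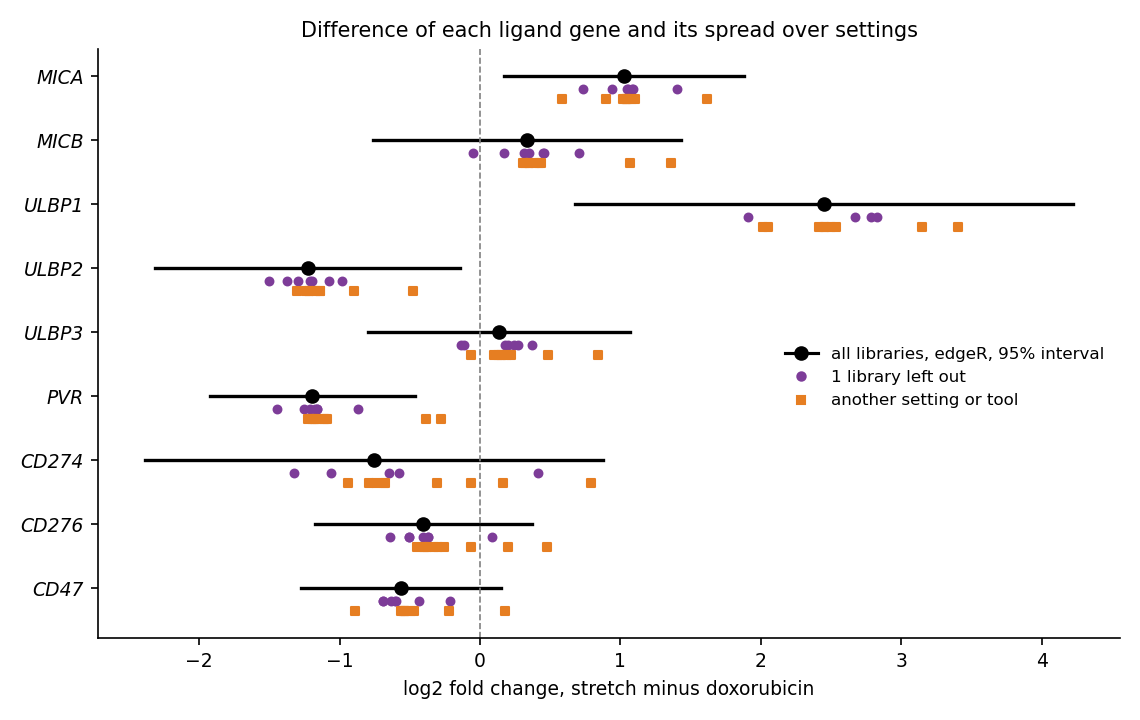
Log2 fold change of each ligand gene, stretch minus doxorubicin (horizontal axis), from edgeR with all libraries (black point, 95% interval as a line), with 1 library left out in turn (purple) and under other settings or tools (orange). MICA and ULBP1 stay right of 0 and ULBP2 and PVR left of 0 in every setting drawn, while each of MICB, ULBP3, CD274, CD276 and CD47 crosses 0 in at least 1.

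**Figure D3:**
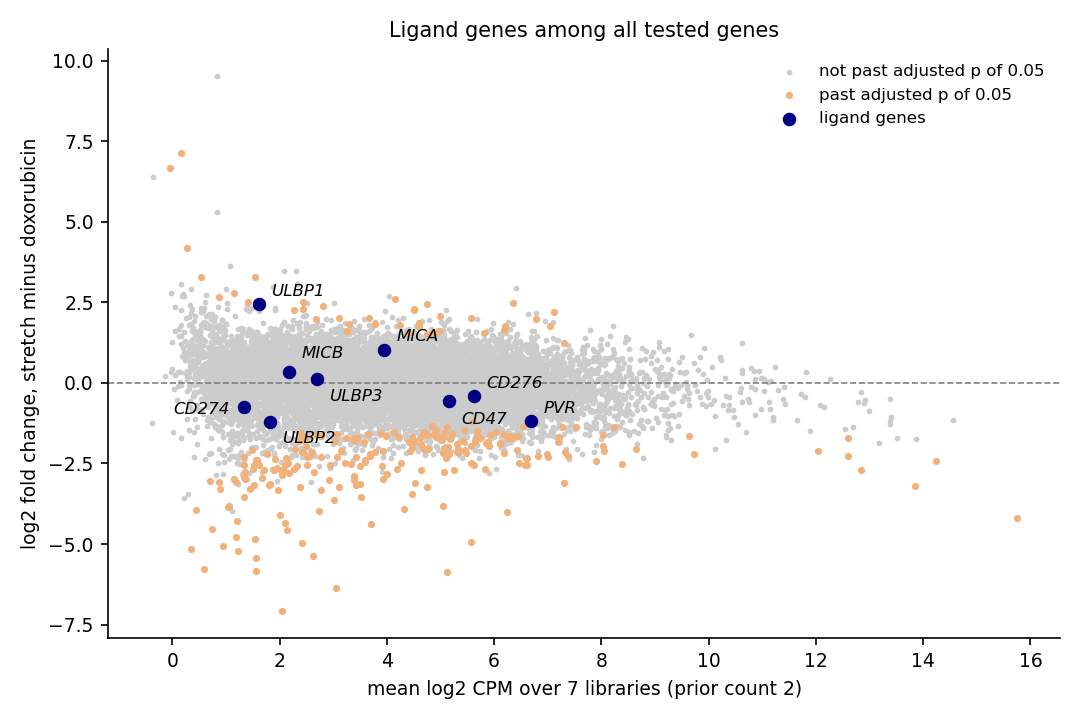
Log2 fold change against mean log2 CPM for the 11230 tested genes, with the 261 past an adjusted p of 0.05 in orange and the 9 ligand genes in blue. All 9 lie within the cloud of genes that did not pass, with ULBP1 near its upper edge.

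Genes that release, regulate or accompany the ligands were taken from 7 lists with 73 genes, of which 62 were in the table and 52 were tested. Of these 52, 2 passed, beside 2.32% of all tested genes in either direction. Both were higher in stretch, and 0.356% of all tested genes passed in that direction. The median log2 fold change of the 52 was 0.16, with 28 on the stretch side and 24 on the doxorubicin side. PVRL1, which codes nectin-1, a relative of PVR in cell adhesion, had 2, 0 and 3 counts after doxorubicin and 29 to 35 counts in each stretch library. Every doxorubicin value was at or under the detection level. Like ULBP1, PVRL1 passed the filter on low counts through the stretch libraries alone (4 stretch and 0 doxorubicin libraries over it), so its being tested, and with it the call, rested on the group where it is high. The summed counts gave a ratio of 6.39 per scaled read with an exact counting interval of 2.66 to 20.0, and the adjusted p was 0.0469 by edgeR. It passed in 8 of 16 alternatives, and not without doxorubicin library 1 or any 1 of the stretch libraries (adjusted p of 0.0835 to 0.170). FGL1, a secreted protein that binds the T cell receptor LAG-3, stood at 23.8, 14.7 and 25.5 CPM after doxorubicin and at 64.9, 111, 71.4 and 107 CPM after stretch. Its groups did not overlap, with a 4.08-fold higher level in stretch (log2 fold change 2.03 with an SE of 0.35, adjusted p of 0.0208 by edgeR). It passed in 10 of 17 alternatives, and not without doxorubicin library 1 or any 1 of the stretch libraries (adjusted p of 0.0529 to 0.108). Without doxorubicin library 3, 32.2% of all genes passed, and so did 19 genes of the lists (52 were tested with all libraries). Besides PVRL1 and FGL1, 7 of the genes named below were among them. PDIA6 (log2 fold change 3.11), ATM (1.72) and ADAM17 (1.55) were on the stretch side. E2F1 (-1.91), PVRL2 (-1.37), HLA-E (-1.33) and LRP1 (-1.25) were on the doxorubicin side. The adjusted p of the 7 by edgeR was 0.00205 to 0.0303. PDIA6, E2F1 and LRP1 are named for the lowest p of their lists, so their passing is partly built in.

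**Figure D4:**
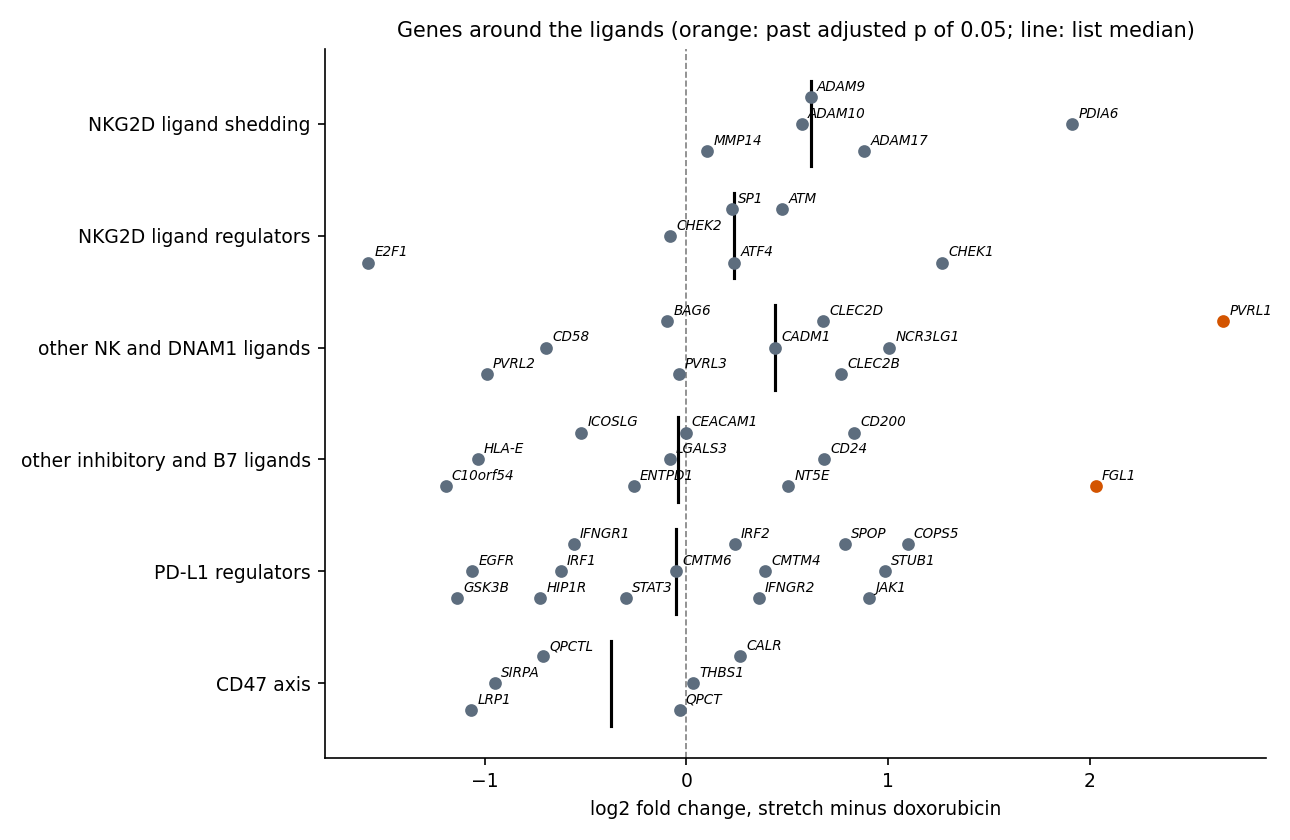
Log2 fold change, stretch minus doxorubicin (horizontal axis), of tested genes in 6 lists around the ligands (2 are not drawn), with the median of all tested genes of a list as a vertical line and the 2 genes past an adjusted p of 0.05 in orange. PVRL1 and FGL1 lie furthest to the right, and all 5 shedding genes lie right of 0, though none of these 5 passed.

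Soluble NKG2D ligands arise when proteases cut MICA, MICB and the ULBP proteins from the surface. With TMM scaling all 5 tested genes of the shedding list lay on the stretch side, with a median log2 fold change of 0.62, and none passed. PDIA6, which codes ERp5, the disulfide isomerase that prepares MICA for cleavage, stood at 54.8, 7.78 and 156 CPM after doxorubicin and at 254 to 299.7 CPM after stretch, a log2 fold change of 1.91 (SE 0.69; adjusted p of 0.135 by edgeR). It was 0.86 with doxorubicin library 3 alone. The sheddases ADAM10 and ADAM17 stood at 16.2 ± 4.56 against 24.6 ± 5.52 CPM and at 11.4 ± 6.49 against 21.98 ± 2.43 CPM (SD, n = 3 and 4), with adjusted p of 0.329 and 0.20.

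Among 7 tested regulators of NKG2D ligands none passed, and 5 lay on the stretch side (median 0.24). ATM, the kinase that signals DNA breaks and can induce the ligands, stood at 3.97, 0.865 and 12.3 CPM after doxorubicin and at 6.63 to 10.8 CPM after stretch (log2 fold change 0.48, adjusted p of 0.625 by edgeR). It was -0.41 with doxorubicin library 3 alone and 1.72 without that library (adjusted p of 0.0303). E2F1, a transcription factor of the cell cycle, stood at 59.96, 239 and 48.96 CPM after doxorubicin and at 30.4 to 48.2 CPM after stretch. Its log2 fold change of -1.58 (adjusted p of 0.107) became -0.34 with doxorubicin library 3 alone, and library 2 was far above the other 2.

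Of 9 tested ligands of other natural killer receptors, 1 passed, PVRL1, with the limit of the filter given above. PVRL2, which codes nectin-2, like PVR a ligand of DNAM-1, stood at 41.3, 68.3 and 16.1 CPM after doxorubicin and at 13.1, 26.9, 22.2 and 20.1 CPM after stretch. Doxorubicin libraries 1 and 2 were above all stretch libraries, and library 3 was within their range. The log2 fold change was -0.99 (adjusted p of 0.219), and 0.37 with doxorubicin library 3 alone. The list median was 0.44. Of 10 tested inhibitory and B7 ligands FGL1 alone passed, and the median was -0.04. HLA-E, which engages the inhibitory receptor NKG2A, stood at 237, 291 and 104 CPM after doxorubicin and at 87.0 to 119 CPM after stretch (log2 fold change -1.04, adjusted p of 0.129), and it was -0.01 with doxorubicin library 3 alone.

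Of 15 tested regulators of PD-L1 none passed, 7 lay on the stretch side and 8 on the doxorubicin side, and the median was -0.05. CMTM6, which keeps PD-L1 at the membrane, stood at 15.7 ± 3.94 against 15.5 ± 2.55 CPM (log2 fold change -0.05, 95% interval -0.75 to 0.65). Of 6 tested genes around CD47 none passed, with a median of -0.37. THBS1, a secreted ligand of CD47, stood at 9.92 ± 0.74 against 10.1 ± 3.73 CPM (log2 fold change 0.03, 95% interval -0.78 to 0.84). LRP1, the engulfment receptor that binds calreticulin, came closest to the threshold in that list (adjusted p of 0.125), at 18.5 ± 7.99 against 8.56 ± 1.84 CPM.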

How the data were processed

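Gene expression was measured in 3 doxorubicin and 4 stretch libraries, grouped by sample title; the groups share no replicate number. Per the labels' protocols, Trizol RNA was amplified with an Ion AmpliSeq gene expression kit, without molecular identifiers stated, so counting intervals cover counting error only. The authors deposited whole numbers, read as rounded estimated counts per gene, not normalised; per the submitters' processing notes fastp 0.20.1, Salmon 1.9 and GRCh38 were used, in roles not given. Of 14647 rows, repeated symbols were summed and the row Metazoa_SRP (at most 0.00861% of a library) was left out.

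With R 4.3.3, edgeR 4.0.16, limma 3.58.1 and DESeq2 1.42.0, genes passing filterByExpr were TMM-scaled and tested with glmQLFit (robust) and glmQLFTest; differences are stretch minus doxorubicin, and p-values were adjusted by Benjamini-Hochberg (threshold 0.05). The standard error is the log2 fold change over the square root of F. Log-CPM used a prior count of 2 and count ratios 0.5. All members are named, with 10 preset genes, those past the threshold in each list (or else that with the lowest p), and the 5 genes nearest in pattern to PVR and CD274. Some of the preset genes are not reported here. Members and lists were chosen with earlier results of these data known. The ratio of PDCD1LG2 to CD274 was not computed. Coordinates and 31-base words came from GENCODE release 29, and promoters, found for 9 members, from RefSeq.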

Additional observations from a re-analysis of the deposited data

Results flagged for a closer look

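CD47 in stretch library 4 stood at 21.6 CPM, while the other 3 stretch libraries lay between 32.8 and 34.9 CPM; the gap was 0.841 of the group's range, above Dixon's 95% critical value for 4 samples. Of the 9 ligand genes examined in this way in the stretch group, it was the only one past that value, and about 5% of groups pass it by chance. ULBP3 in the same library came close, with a gap of 0.811 of the range on the high side. Stretch library 4 also stood furthest from the other stretch libraries for MICA (gap 0.704), ULBP1 (0.570) and ULBP2 (0.489), all under the critical value. For MICB it was stretch library 5 that stood furthest, and for PVR, CD274 and CD276 stretch library 7.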

How the results depend on the processing

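No paired analysis was possible because the groups share no replicate number. MICA, ULBP1, ULBP2 and PVR kept their direction in every other setting that gave a value (17, 13, 16 and 17). ULBP1 gave none without stretch library 5, 6 or 7, or among genes with a mean of at least 10 CPM, where too little of it was left to be tested. Over all genes named, 25 values turned direction. The all-gene median log2 fold change was 0.02, and 0.71 with library totals alone.

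Ligand genes called (0 in the report) numbered 2 with DESeq2, 6 with voom and quality weights, and 0 to 2 with 1 library left out. Called genes of the lists (2 in the report) numbered 1 with upper-quartile factors, 0 with library totals, 4 without a filter, 1 with a mean of at least 10 CPM, 7 with DESeq2, 28 with voom and quality weights, 1 with doxorubicin library 3 alone, and 0 (without doxorubicin library 1, among others) to 19 (without doxorubicin library 3). Of all genes, 261 became 13 with library totals, 143 with a mean of at least 10 CPM, 1315 with DESeq2, 5276 with voom and quality weights, 99 with doxorubicin library 3 alone, and 12 (without stretch library 6) to 3736 (without doxorubicin library 3).

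Turned log2 fold changes were, with library totals, CD274 0.16, CD276 0.48, CD47 0.18, IRF1 0.17, PVRL2 0.0015 and CMTM6 0.60; CMTM6 0.0081 with upper-quartile factors and 0.034 without a filter; THBS1 -0.042 with limma-voom; CD276 0.20 and THBS1 -0.29 with voom and quality weights; and, with doxorubicin library 3 alone, ULBP3 -0.066, CD274 0.79, ATM -0.41 and PVRL2 0.37. With 1 library left out the ranges were -0.047 to 0.71 (MICB), -0.13 to 0.37 (ULBP3), -1.32 to 0.41 (CD274), -0.64 to 0.082 (CD276), -0.21 to 0.10 (CMTM6), -0.26 to 0.14 (THBS1) and -1.57 to 0.10 (log2 ratio of MICB to MICA). The cause was not tested. Depth limits ULBP1, CD274, ULBP2 and MICB most, with 2 to 23 counts in each doxorubicin library.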

Other observations

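A pair of inhibitory genes outside the naming rule, picked after their values were seen, were too weak for the filter on low counts. Without a filter both were past an adjusted p of 0.05, as were 285 of all 14535 genes. IDO1, an interferon-inducible enzyme that degrades tryptophan and restrains T cells, received 16, 4 and 1 counts in the doxorubicin libraries, in order, and 0, 1, 0 and 0 counts in stretch libraries 4 to 7. Summed, this was 21 counts against 1, a stretch to doxorubicin ratio of 0.0121 per scaled read with an exact 95% counting interval of 0.00029 to 0.0750. Its adjusted p without a filter was 0.0334 by edgeR. LGALS9, which codes galectin-9, a ligand of the T cell receptor TIM-3, had 39, 0 and 9 counts after doxorubicin and 3, 1, 3 and 0 after stretch, with an adjusted p of 0.0450 without a filter. Doxorubicin library 2, at 0 counts of LGALS9, was not above the stretch libraries, and most of the IDO1 and LGALS9 counts came from doxorubicin library 1.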
